A study of Populus tremula with 16 samples.

Results

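Leaves of Populus tremula (European aspen, a deciduous tree) were sampled 4 times in July and August 2011, before autumn senescence, and these 4 of the 16 libraries of an RNA sequencing time series are described here. The libraries of 5 and 31 August were set against those of 27 July and 19 August, a division in which the dates alternate, so that it does not follow the order of the calendar. The pairs were chosen by the likeness of these libraries' expression values, and the IDs were selected on the same 4 libraries, so every summer difference below is a description with no test. A gene ID was counted as a swing ID where the lower library of one pair was at least 2-fold above the higher library of the other, and 319 of 13570 IDs met this rule. The labels give no genotype, treatment, tree or hour of collection, and there was 1 library per date, so a date stands for a single sample and p-values measure only the spread between single dates.

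Messenger RNA levels in leaves outdoors are known to change within hours. Many plant genes follow the circadian clock, and many respond to light, temperature, water supply, wounding or pathogens, so leaves of unchanged age can differ between sampling days. Senescence is in contrast a slow and ordered programme in which the leaf dismantles its photosynthetic apparatus and exports nutrients before it is shed. The deposited tables give IDs that begin with Potri and pair none of them with a gene name, so no function is assigned to an ID here, and the labelled tissue was not checked against marker genes. For the same reason 4 IDs are named, the 2 with the widest separation in each direction, and the others are given by counts.

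Summer libraries held 5962319 counts on 27 July, 6729131 on 5 August, 6008349 on 19 August and 5148979 on 31 August. The 10 most abundant IDs took 83.4% to 84.1% of them. Levels are given in CPM, counts over a library size that was scaled with TMM, a normalisation that trims IDs with extreme ratios, and log2 values carry a prior count of 2. Where no read is counted, up to 3 counts remain possible, or 0.449 to 0.596 CPM in these libraries, by counting error alone.

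Any 2 summer dates differed in at least 421 IDs, and the number depended on which dates were compared. Between 27 July and 19 August, 421 of 13570 IDs (3.1%) differed by at least 2-fold, 239 (1.76%) higher and 182 (1.34%) lower on the later date. Between 5 and 31 August it was 1058 IDs (7.8%), 533 (3.93%) higher and 525 (3.87%) lower. Across the pairs the numbers were larger. From 27 July to 5 August 858 IDs (6.32%) stood at least 2-fold higher and 1048 (7.72%) lower, the widest of the 6 comparisons. From 5 to 19 August 931 (6.86%) were higher and 738 (5.44%) lower, so that on this step back the higher IDs outnumbered the lower ones. From 19 to 31 August 583 (4.3%) were higher and 679 (5%) lower, and between 27 July and 31 August 653 (4.81%) were higher and 810 (5.97%) lower.

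**Figure D1:**
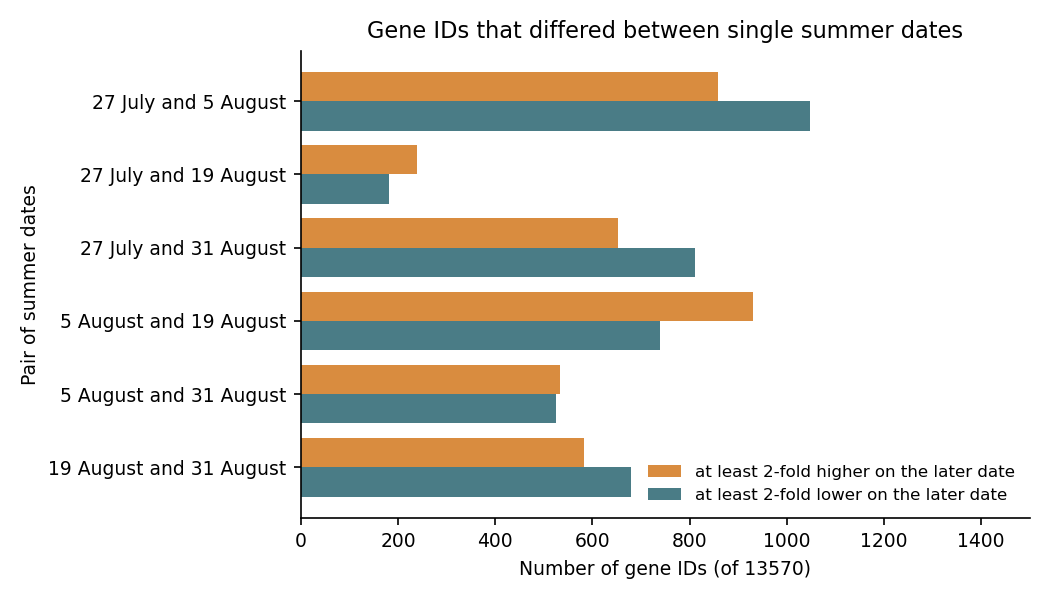
Number of gene IDs, of 13570, that differed by at least 2-fold between the single libraries of 2 summer dates, for all 6 pairs of dates. Orange bars count IDs higher on the later date and teal bars IDs lower on it. The shortest bars, 239 and 182 IDs, belong to 27 July and 19 August, and the longest bar, 1048 IDs, to 27 July and 5 August.

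The size of a typical difference followed the same order. The median absolute log2 difference per ID was 0.26 between 27 July and 19 August, 0.33 between 5 and 31 August, and 0.34 to 0.41 in the 4 comparisons across the pairs. These differences include counting noise, since IDs had a median of 123 counts over the 4 libraries. With the filter raised to 200 counts, which 4170 IDs passed, 0.959% differed by 2-fold between 27 July and 19 August and 3.74% between 5 and 31 August. Across the pairs 6.26% to 10.6% of these deeper IDs still did. The scatter of counts exceeded binomial sampling in all 6 comparisons, by 1.85 times for 27 July and 19 August and by 3.4 to 6.15 times for the others, so no 2 of the 4 summer libraries were taken for 1 library.

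On some dates an ID stood apart from all 3 other summer dates, and most of these cases belonged to 5 August. On that date 142 IDs (1.05%) were at least 2-fold above and 217 (1.6%) at least 2-fold below the other 3 libraries. On 31 August the numbers were 57 (0.42%) above and 119 (0.877%) below. On 27 July they were 30 (0.221%) above and 71 (0.523%) below, and on 19 August 25 (0.184%) above and 36 (0.265%) below. Among the 4170 IDs with at least 200 counts, 53 were alone high and 23 alone low on 5 August, against 10 and 10 on 31 August. The same numbers were 1 and 10 on 27 July and 3 and 4 on 19 August. The 2 dates of a pair were thus not equivalent, and 5 August was the more extreme of its pair.

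The steps from 27 July to 5 August and from 19 to 31 August rest on separate libraries. The dates were paired because these libraries resembled each other, so the likeness of the steps is what the choice used and supports nothing by itself. Of the 858 IDs that were at least 2-fold higher on 5 August than on 27 July, 213 (24.8%) were also 2-fold higher on 31 August than on 19 August, and they made up 36.5% of the 583 IDs that were. Over all IDs 4.3% were higher by that much in the later step. Of the 1048 IDs that were lower in the first step, 247 (23.6%) were lower again, 36.4% of the 679 IDs lower in the later step, against 5% of all IDs. The opposite order was rare, with 20 IDs higher in the first step and lower in the later one and 6 the other way. Over the 13570 IDs the log2 changes of both steps had Pearson's r of 0.43 and Spearman's rho of 0.38, and 62.7% had the same sign. These values describe 4 libraries, and IDs of 1 library share its depth and scaling.

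**Figure D2:**
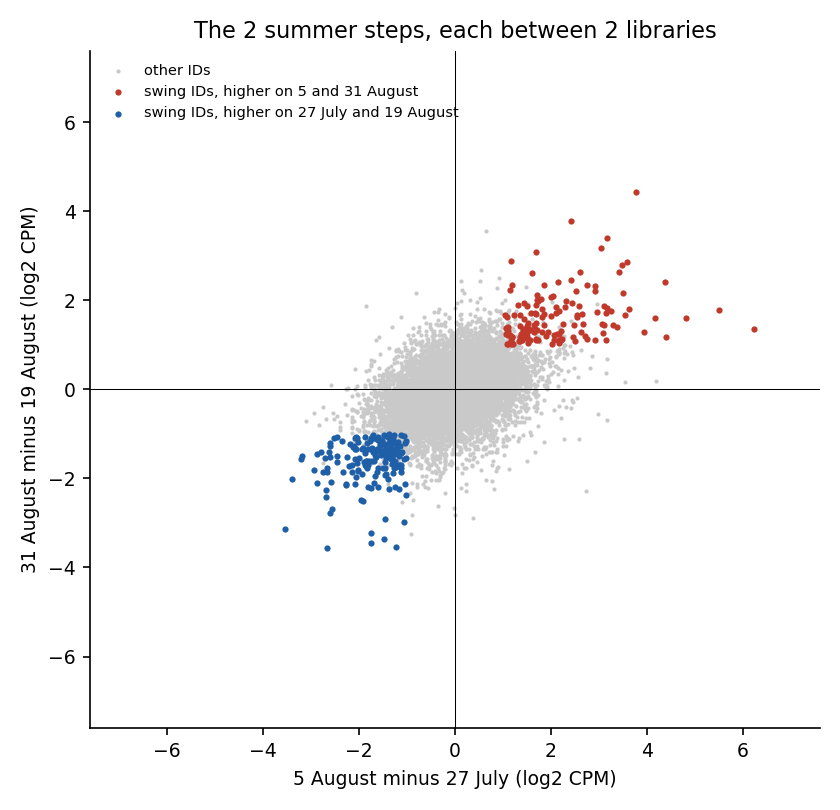
Log2 change of each of 13570 gene IDs from 27 July to 5 August (horizontal axis) and from 19 to 31 August (vertical axis), 1 point per ID. Red points are the 144 swing IDs higher on 5 and 31 August and blue points the 175 higher on 27 July and 19 August, which lie in opposite corners by the way they were chosen. The grey points lean along the same diagonal, with Pearson's r of 0.43 over all IDs.

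Without a minimum separation, both libraries of 5 and 31 August lay above both of 27 July and 19 August for 3234 IDs (23.8%), and below both for 3351 (24.7%). Many IDs would separate in this way under any division of so few libraries. The pairs were also chosen for their likeness, so these shares do not measure an alternation. A separation of 1.5-fold was kept by 473 and 610 IDs. At least 2-fold, 144 IDs (1.06%) were higher on 5 and 31 August and 175 (1.29%) were higher on 27 July and 19 August, and these are the swing IDs. A separation of 4-fold was reached by 12 and 7 of them. At the limit, the nearest IDs inside it were separated by 2.002-fold in both directions, and the nearest outside it by 1.9999-fold and 1.996-fold, so the limit marks no break in the values.

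The IDs higher on 5 and 31 August had somewhat larger folds and were more abundant than those of the opposite direction. Their pair means differed by a median of 3.25-fold, with a range of 2.08-fold to 17.1-fold. For the IDs higher on 27 July and 19 August the median was 2.99-fold, with a range of 2.09-fold to 10.1-fold. The median level over the 4 libraries was 7.84 CPM in the first set and 3.72 CPM in the second, against 5.2 CPM over all 13570 IDs. These folds are those of IDs chosen for their separation in the same libraries. They also carry the prior count, which shrinks folds more where counts are low. The median ID had 186.5 counts in the first set and 88 in the second, and the part of the prior in the difference was not tested.

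By date, the median level of the 144 IDs was 2.65 CPM on 27 July, 13.2 CPM on 5 August, 2.85 CPM on 19 August and 10.9 CPM on 31 August. The median of the 175 IDs was 5.48, 1.5, 5.71 and 1.59 CPM on the same dates, while that of all IDs stayed between 5.08 and 5.21 CPM. The 144 IDs together took 0.066%, 0.298%, 0.0707% and 0.218% of the counts of these libraries, and the 175 took 0.202%, 0.0571%, 0.193% and 0.0641%. Outside the 10 most abundant IDs, the 144 made up 0.406%, 1.8%, 0.44% and 1.37% of the remaining counts and the 175 made up 1.24%, 0.344%, 1.2% and 0.402%. Fewer cells of a type and less RNA per cell cannot be told apart in such bulk libraries.

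Members of a set did not move by equal amounts. Of the 144 IDs, 109 were higher on 5 August than on 31 August, and 23 differed by at least 2-fold between these dates although both were high. In the low pair of the same IDs, 93 were lower on 27 July than on 19 August and 10 differed by at least 2-fold. The 175 IDs of the opposite direction were more even on their high dates, with 98 higher on 27 July than on 19 August and 5 apart by at least 2-fold. On their low dates 99 were lower on 5 August than on 31 August and 16 were apart by at least 2-fold.

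Swing IDs were found at every level of abundance. Ranked by mean CPM, 1 of the 100 most abundant IDs was a swing ID, 22 of the next 900, 72 of the following 3000 and 224 of the remaining 9570, or 1%, 2.44%, 2.4% and 2.34% of each class. The classes differed in direction. Between the 100 most abundant IDs and rank 4000, 63 swing IDs were higher on 5 and 31 August and 31 on 27 July and 19 August, and below rank 4000 it was 81 and 143. The median log2 range over the 4 summer dates was 0.44 for the 100 most abundant IDs, 0.6 and 0.59 for the next 2 classes and 0.79 for the rest, where counts are lowest.

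Swing IDs were spread over the ID numbers. They carried 20 prefixes, counting those that begin with T as 1. Under prefix 013G, 17 of 598 IDs that passed the filter (2.84%) were higher on 5 and 31 August, the highest share of any prefix, and 7 (1.17%) were higher on 27 July and 19 August. The other prefixes ran from 0.379% to 1.84% in the first direction and from 0.223% to 1.78% in the second. Of the 144 IDs, 19 had another within 5 IDs in number order, in 9 short runs of at most 3, and of the 175 it was 10 in 5 runs of 2. The sources used here do not say how reads shared by similar neighbours were counted, so single values in such runs are uncertain.

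Values of the named IDs are given on the scale of the whole series, so that they can be set beside September, and the 4 summer values are a description. Potri.011G106400 was at or near the floor on the low dates, with 4 counts (0.964 CPM) on 27 July and 3 counts (0.729 CPM) on 19 August. On this scale the floor of 3 counts was 0.723 and 0.729 CPM on these dates. It had 89 counts on 5 August (19.1 CPM) and 89 on 31 August (25.4 CPM). On the scale of the summer libraries alone, used above, these were 13.3 and 17.7 CPM. With the prior count of 2, both high libraries were at least 13.6-fold above both low ones. The ratio of summed counts, here and below scaled for library size, was 26 (95% exact interval 12.4 to 65.6, counting error only). The named IDs were picked for the widest separation in these same counts. Their ratios are therefore likely too large, and the intervals test nothing. From 2 to 15 September it stood at 4.42, 14, 4.02, 7.73, 15.9 and 0 CPM, so the counted September dates lay between the summer pairs. The value of 0 comes from a shallow library, that of 15 September, in which 0 counts allow up to 3.37 CPM. From 18 September to 1 October it stood at 5.72, 6.04, 6.61, 17.6 and 43.6 CPM, the last above every summer date.

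Potri.005G053200 had 26 and 20 counts on 27 July and 19 August (6.27 and 4.86 CPM), and 275 and 195 counts on 5 and 31 August (59 and 55.7 CPM). With the prior count of 2 the libraries of the pairs were separated by 8.4-fold, and summed counts gave a ratio of 10.4 (95% exact interval 7.7 to 14.5). Its levels on the 2 high dates were nearly equal, and so were those on the 2 low dates. On 2 September, the collection after 31 August, it was at 1.89 CPM, below all 4 summer values. It then stood at 10.4, 16.9 and 5.15 CPM on 5, 9 and 11 September, reached 92.3 CPM on 13 September and was at 4.5 CPM on 15 September. All later values lay between 4.87 and 13.2 CPM.

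Potri.003G109200 went the other way, with 43 and 26 counts on 27 July and 19 August (10.4 and 6.32 CPM) and 2 and 1 counts on 5 and 31 August (0.429 and 0.286 CPM). The ratio of summed counts was 22.5 (95% exact interval 7.39 to 112), an uncertain size because the low pair holds 3 counts in all. In September and October it had 0 to 10 counts in each library and at most 2.25 CPM, so it did not return to its levels of 27 July or 19 August. Potri.003G068000 had 93 and 85 counts on 27 July and 19 August (22.4 and 20.6 CPM) and 15 and 9 counts on 5 and 31 August (3.22 and 2.57 CPM), a ratio of 7.26 (95% exact interval 4.72 to 11.6). It stood at 7.37, 5.62, 4.44, 10.3, 2.48 and 8.99 CPM from 2 to 15 September, between the summer pairs on 5 of 6 dates. It was at 2.54 to 3.8 CPM from 18 September on, near its low summer dates. The values of 11 and 15 September rest on 8 counts each. Those of 28 September and 1 October rest on 4 and 3 counts, at or near the floor of 3 counts.

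**Figure D3:**
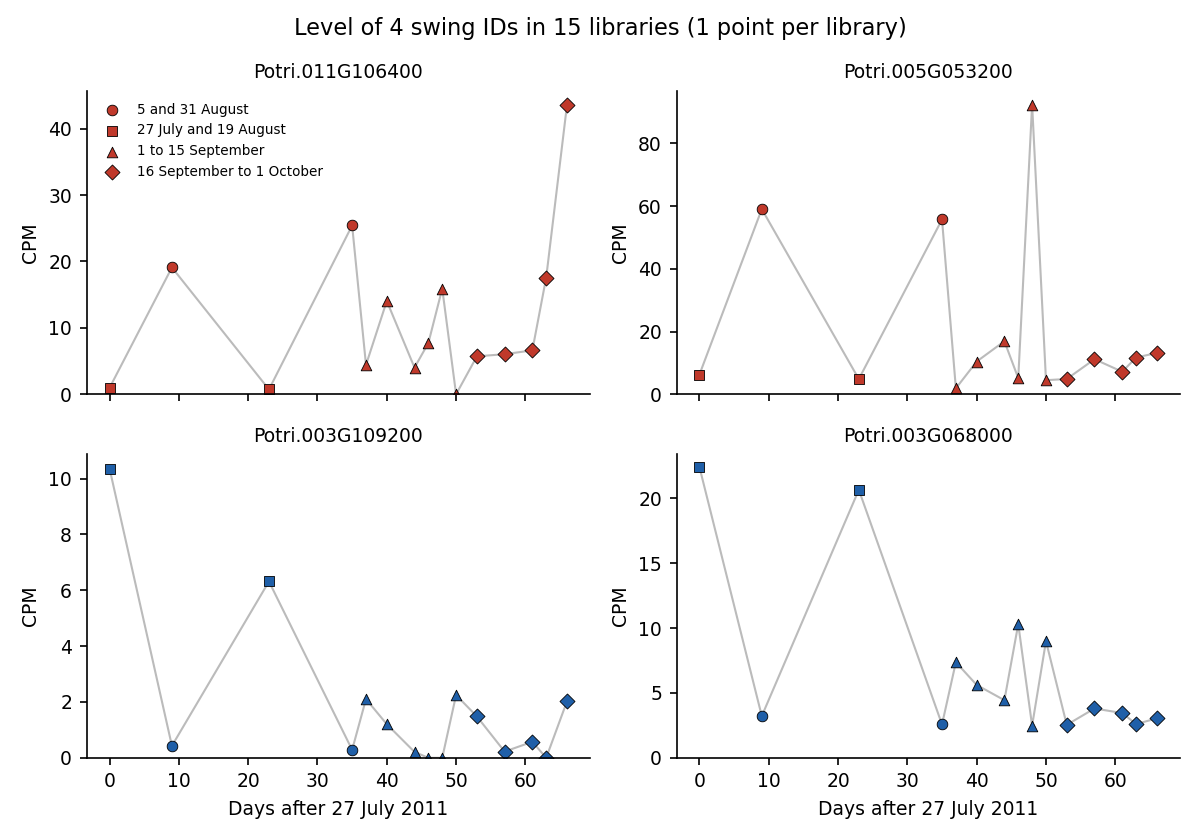
Level in CPM of 4 gene IDs in 15 libraries, 1 point per library, against days after 27 July 2011. Circles and squares are the summer pairs, triangles 1 to 15 September and diamonds 16 September to 1 October, and the grey line joins dates in order. The red IDs reached their summer highs on 5 and 31 August and the blue ones on 27 July and 19 August, and Potri.005G053200 was above both of its summer highs on 13 September, at 92.3 CPM.

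September libraries took no part in choosing the swing IDs, and in them the same IDs again varied more from date to date than most. Over the 4 deeper libraries of that fortnight, 2, 5, 9 and 13 September, 90 of the 144 IDs (62.5%) and 105 of the 175 (60%) had a range of at least 2-fold, against 25.4% of all 13570 IDs. The median log2 range was 1.29 and 1.16 in the sets and 0.7 over all IDs. The difference from all IDs was seen at both levels of summer abundance. These levels were ranked by mean CPM over the 4 summer libraries, so September counts were not matched. The part of counting noise in the difference was not tested. Among the 4000 most abundant IDs a 2-fold range was found for 37 of 63 and 21 of 32 swing IDs, against 16% of all. Among the remaining IDs it was found for 53 of 81 and 84 of 143, against 29.4%. A range over these dates holds steady change across the fortnight as well as swings. Without 5 September 58 of the 144 and 69 of the 175 IDs kept a 2-fold range, as did 2117 of all 13570 IDs in place of 3452. A range over fewer libraries is smaller by its nature, so this fall does not show whether the result rested on a single library.

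After summer the medians of the 2 sets came to lie apart. With TMM each lay on 1 side of its summer mean, while with library totals alone the 175 IDs averaged 0.035 log2 units above it in 1 to 15 September. Each library was set against the mean of the 4 summer libraries. The median of the 144 IDs was 0.14, 0.06, 0.29, 0.08, 0.53 and 0.02 log2 units on 2, 5, 9, 11, 13 and 15 September, and 0.36 to 0.68 from 18 September to 1 October. The median of the 175 IDs was -0.35, -0.03, -0.46, -0.56, -0.71 and -0.55 on the first 6 dates and -1.08 to -1.81 on the others. Among IDs with at least 200 summer counts, the later medians averaged 0.26 and -1.78 in the 2 sets, in place of 0.54 and -1.44. On 5 September both sets lay near the summer mean. On 13 September 111 of the 144 IDs and 41 of the 175 were above that mean, against 50% of all IDs. For the 144 IDs this was the highest count after summer. On the other September and October dates 72 to 92 of the 144 and 32 to 84 of the 175 were above it. From 18 September on, the 175 IDs had medians below the values of -0.81 and -0.7 that they had on their low summer dates of 5 and 31 August.

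Relative to the median of all IDs in the same library, the 144 IDs stood at 0.22 ± 0.18 log2 units in 1 to 15 September (SD, n = 6) and at 0.73 ± 0.22 from 16 September to 1 October (SD, n = 5). The 175 IDs stood at -0.41 ± 0.23 and -1.25 ± 0.23. After 15 September the medians of the sets thus lay on the side they had taken on 5 and 31 August. The share of the 10 most abundant summer IDs moved over the same dates, from 83.4% to 84.1% in summer to 67.5% to 72.6% from 18 to 26 September, 37.5% on 28 September and 32.4% on 1 October, and its part in these medians was not tested. With library totals in place of TMM, the median of all IDs lay 0.51 and 0.52 log2 units above the summer mean, and relative to it the sets stood at 0.2 and 0.74 and at -0.47 and -1.34.

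**Figure D4:**
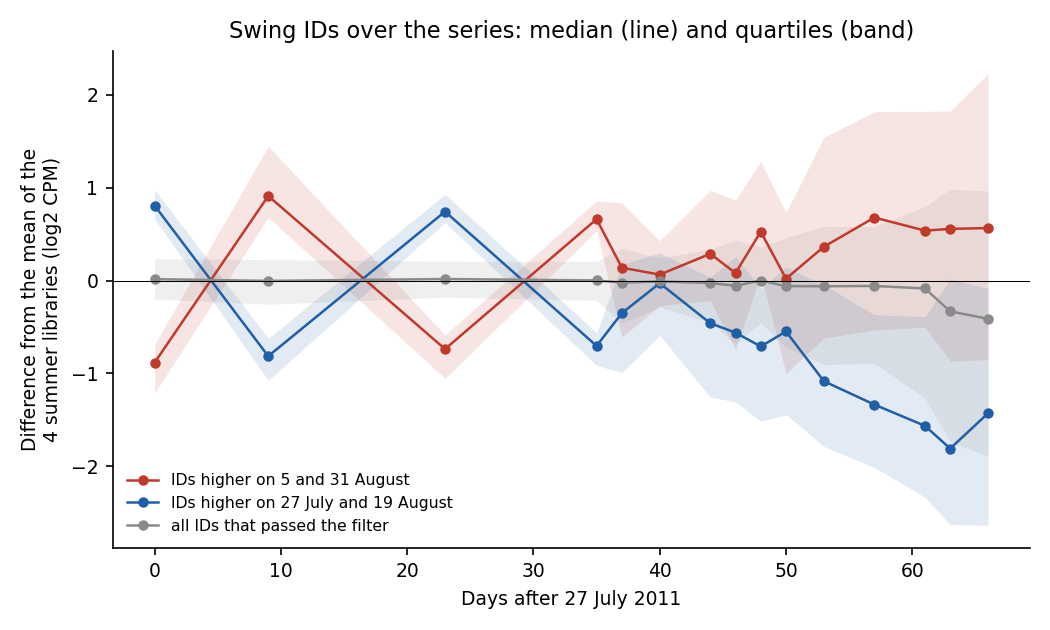
Median (line and points) and quartiles (band) of the log2 difference from the mean of the 4 summer libraries, in each of 15 libraries, against days after 27 July 2011. Red is the 144 IDs higher on 5 and 31 August, blue the 175 IDs higher on 27 July and 19 August and grey all 13570 IDs. The zigzag of the first 4 points follows from the choice of IDs, and from day 53 on the blue median lies between -1.08 and -1.81 and the red one between 0.36 and 0.68.

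The difference between 1 to 15 September and the later dates was tested without any summer library. In edgeR's quasi-likelihood test, 37 of the 129 tested IDs of the set higher on 5 and 31 August were called higher in the later leaves at an adjusted p of 0.05, which is 28.7%, against 18.8% of all tested IDs that passed the summer filter and 22.2% of all 12580 tested. Of the same 129 IDs, 13 (10.1%) were called lower, against 24.7% of those that passed the summer filter and 22.5% of all tested. Of the set higher on 27 July and 19 August, 97 of the 175 IDs had enough September counts to be tested. It was 129 of 144 in the other set and 11394 of all 13570 IDs. Of the 97 IDs, 40 (41.2%) were called lower and 16 (16.5%) higher. The median log2 change from the earlier to the later dates was 0.31 in the first set, -0.68 in the second and -0.15 over all 11394 IDs. Without a filter beyond 1 count, 37.1% of the 175 IDs were called lower and 9.71% higher, against 20.1% and 14.8% of all IDs. The medians were then 0.25, -1.18 and -0.25. With library totals alone, 38.8% and 5.43% of the first set were called higher and lower and 18.6% and 26.8% of the second, against 29.3% and 15.3% of all. Most of the first set, 79 of its 129 tested IDs, was called in neither direction. No call was made either for 41 of the 97 tested IDs of the second set and for 6440 of all 11394. Without 2, 5 or 9 September the 40 calls fell to 25, 24 and 25, while the number tested fell to between 80 and 82 and 18.9% to 21.5% of all IDs were called lower.

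The sets differ in abundance, and the shares called depend on it. The classes here are ranks of mean CPM in summer and do not match September levels. Among the 4000 most abundant IDs 31.2% were called lower in the later leaves, and it was 18 of 31 in the set higher on 27 July and 19 August and 10 of 62 in the opposite set. Among the less abundant IDs 21.2% were called lower, and it was 22 of 66 and 3 of 67. Higher calls were made for 16 of 62 and 21 of 67 IDs of the set higher on 5 and 31 August, where 17.6% and 19.4% of all IDs of these classes were called higher. They were made for 2 of 31 and 14 of 66 IDs of the other set.

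Of the named IDs, Potri.003G068000 was called lower in the later leaves. It went from 6.53 ± 2.92 CPM (SD, n = 6) to 3.09 ± 0.542 CPM (SD, n = 5), a log2 change of -1.09 (SE 0.33, edgeR adjusted p = 0.0172). With library totals alone that call ended, at a change of -0.71 (edgeR adjusted p = 0.101), and it also ended without 28 September and 1 October (adjusted p = 0.053) and without 11 and 15 September (adjusted p = 0.0503). Over 18 alternatives the edgeR or DESeq2 adjusted p ran from 0.00606 to 0.101, and 15 of them kept the call. Potri.011G106400 had a log2 change of 0.55 (SE 0.65, edgeR adjusted p = 0.508) and Potri.005G053200 one of -1.49 (SE 0.79, edgeR adjusted p = 0.138), neither past the threshold. Without 13 September the change of Potri.005G053200 was -0.088 (edgeR adjusted p = 0.906), so that library carried it. Potri.003G109200 had too few September counts to be tested.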

How the data were processed

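Leaf RNA of 16 dates was sequenced, with 1 library per date. The authors deposited raw read counts for 41335 IDs. The tools named in the submitters' processing notes, with no role given, are STAR 2.4, HTSeq, Trimmomatic 1.0, FastQC 1.0 and CASAVA 1.8.2. The sources used here name no genome build, annotation or strand setting. Each sample's own table held the same counts as the joint one. The authors' normalised table was not used.

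IDs with at least 40 counts over the 4 summer libraries were kept (13570) and scaled by TMM. In the named values, all later libraries were scaled together with them. The September test used edgeR 4.0.16 in R 4.3.3 (glmQLFit, glmQLFTest, filterByExpr, TMM) on 11 libraries, with Benjamini-Hochberg adjustment over 12580 IDs and a threshold of 0.05. Standard errors are the log2 change over the root of F. The library of 19 September never exceeded that of 18 September in any of 18378 IDs and was left out. Any likeness of neighbouring dates, which was not measured, would make these p-values too small. Scripts were tested on simulated data.

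The date pairs, sets and measures were chosen with earlier results of these data known. The rule for naming allowed more IDs, but 4 are named because no ID has a gene name here, and 23 lists of gene functions could not be applied. DESeq2 1.42.0, other scalings, filters and left out libraries were tried as alternatives.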

Additional observations from a re-analysis of the deposited data

Results flagged for a closer look

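In 14 groups of 4 to 6 libraries, 1 extreme value was farther from its neighbour than Dixon's 95% limit allows, a limit that chance passes in about 1 in 20 groups. Potri.005G053200 was at 92.3 CPM on 13 September, where the nearest of the other libraries of 1 to 15 September, that of 9 September, had 16.9 CPM. The value rests on 261 counts.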

How the results depend on the processing

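No paired analysis was possible because the labels give dates and no replicate numbers. The numbers of swing IDs higher on 5 and 31 August and higher on 27 July and 19 August, 144 and 175, stayed within 1.5 times under 4 other scalings, a prior count of 0.5 and thinning to 1 depth. They were 246 and 321 without a filter beyond 1 count, 62 and 41 at 200 counts or more, 473 and 610 at a separation of 1.5-fold and 12 and 7 at 4-fold. Without 1 summer library, which loosens the rule, they were 280 to 437 and 291 to 629. At 200 counts or more the date comparisons gave 444 IDs for 27 July and 5 August, 40 for 27 July and 19 August, 311 for 27 July and 31 August, 400 for 5 and 19 August, 156 for 5 and 31 August and 261 for 19 and 31 August.

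In the September test, library totals alone gave 7 and 26 lower calls in the sets in place of 13 and 40, and over all IDs 3341 higher and 1745 lower calls. Without a filter 65 of the 175 IDs (37.1%) were called lower, against 20.1% of all IDs. Without 1 library it was 24 to 45, or 29.6% to 45.5% of those tested, against 18.9% to 28.2% of all IDs. Without 28 September and 1 October together the log2 change of Potri.011G106400 was -0.56, against 0.55, and without 1 library it ran from -0.13 (without 1 October) to 0.85. The cause was not tested. Leaving out 2 dates together, the limit of 200 counts for the set medians, and every measure of the range over single September dates were chosen after seeing the data.

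With library totals alone the set medians were 0.71 and 1.26 log2 units above the summer mean in both periods for the 144 IDs, 0.035 and -0.82 for the 175 IDs, and 0.51 and 0.52 over all IDs, which that scaling raised as a whole. For the IDs with at least 200 counts they were 0.075 and 0.26 in the first set and -0.75 and -1.78 in the second. With all 6 libraries of 1 to 15 September, 7863 of all IDs (57.9%) had a 2-fold range in place of 3452 (25.4%). Of the swing IDs 121 (84%) and 147 (84%) did, in place of 90 (62.5%) and 105 (60%), so the contrast with all IDs was smaller. Without 1 of the 4 deeper libraries a 2-fold range was kept by 2117 to 2756 of all 13570 IDs. It was kept by 58 to 83 of the 144 IDs and by 69 to 93 of the 175. Counts limit the low IDs, and the libraries of 11 and 15 September have the highest floors.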
